A study of Homo sapiens with 12 samples.

Results

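The genes described here serve epithelial polarity, membrane traffic and surface proteolysis: EPCAM, MAL, MAL2, RAB25, CDS1, ELF3, ST14, SPINT1 and PRSS8, which are 9 of the 18417 genes with a probe set assigned to 1 gene symbol. They were listed by name, and each gene was read from its probe set with the highest mean over the 12 arrays. The arrays held total RNA from AsPC1 and BxPC3, established cell lines of human pancreatic ductal adenocarcinoma, and from AsPC1-R and BxPC3-R, the derivative of each that is resistant to the platinum drug cisplatin, with 3 arrays for each of the 4 groups. The parental lines grew without drug, the medium of AsPC1-R held 1.67 µM cisplatin and that of BxPC3-R held 0.60 µM, and the derivatives went through their last passage without drug. Each line has 1 derivative, and the labels do not say whether it is a clone or whether the 3 arrays came from separate cultures, so each p-value below measures only the spread between these arrays, which may be technical.

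Epithelial cells keep an apical and a basolateral surface apart by sorting lipids and proteins into separate carriers. MAL and MAL2 are small membrane proteins of lipid rafts that carry cargo to the apical surface, RAB25 is an epithelial small GTPase of the recycling endosome, and CDS1 makes CDP-diacylglycerol, the precursor of phosphatidylinositol and so of the phosphoinositides that mark membrane domains. EPCAM is the adhesion protein used to define carcinoma cells, ELF3 is an epithelium-specific ETS transcription factor, ST14 (matriptase) and PRSS8 (prostasin) are membrane-anchored serine proteases of one cascade, and SPINT1 (HAI-1) is the inhibitor that holds matriptase in check.

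All values are log2 expression values, in which a difference of 1 is a factor of 2, and values are compared within a gene only. In AsPC1-R, MAL2 rose 3.46-fold and CDS1 and ELF3 fell. In BxPC3-R, RAB25, ELF3, ST14, SPINT1 and PRSS8 fell by 1.29-fold to 1.90-fold and CDS1 rose. The widest differences were between the lines: MAL2 was 104.5-fold and RAB25 50.57-fold lower in AsPC1 than in BxPC3. A change was called at an adjusted p under 0.05 in limma, with Benjamini-Hochberg adjustment over all 18417 genes. The number in parentheses after a difference is its standard error from the same fit.

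Array medians ran from 6.48 to 6.65. Of 7 ductal epithelial markers, 6 read at or above the median of all values (6.554) in every group. The exception was CFTR, at 4.09 to 4.81. The array means of the marker lists were 9.29 to 9.78 for ductal, 5.71 to 6.10 for acinar and endocrine, 5.66 to 6.52 for fibroblast, 5.65 to 6.28 for leukocyte and 5.47 to 6.38 for endothelial markers. Of the defining markers, the pan-leukocyte gene PTPRC lay at 3.19 to 3.27 and the fibroblast gene DCN at 3.83 to 4.10, whereas LUM read 11.55 in AsPC1, CDH5 9.34 in BxPC3 and CD68 8.53 to 10.83. Replicate 2 of BxPC3 stood apart. Of the 50 transcripts by which AsPC1 most exceeded BxPC3-R, 50 had their highest BxPC3 value on it, with a median excess of 0.83. None of the 9 genes was among these 50, which by their choice are far higher in AsPC1. The largest difference of AsPC1 from BxPC3-R in that direction was 2.22 (ELF3). Their absence therefore does not say whether that array affects the 9 genes. Signal without transcript was not measured. The SMAD4 and CDKN2A genes are known to be deleted in BxPC3. Their probe sets still read 4.14 to 5.01 and 6.11 to 6.33 there, so the size of a difference from a low reading is uncertain. From BxPC3 to BxPC3-R, the mean of SMAD4 went from 4.7 to 4.63. That of CDKN2A went from 6.22 to 5.75, with no overlap of the arrays. The CDKN2A shift was wider than the called BxPC3-R changes of RAB25 (-0.38), ELF3 (-0.37) and CDS1 (0.39). Those genes read higher in BxPC3 (means 10.77, 7.72 and 8.56), and whether such a shift affects them was not tested.

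**Figure D1:**
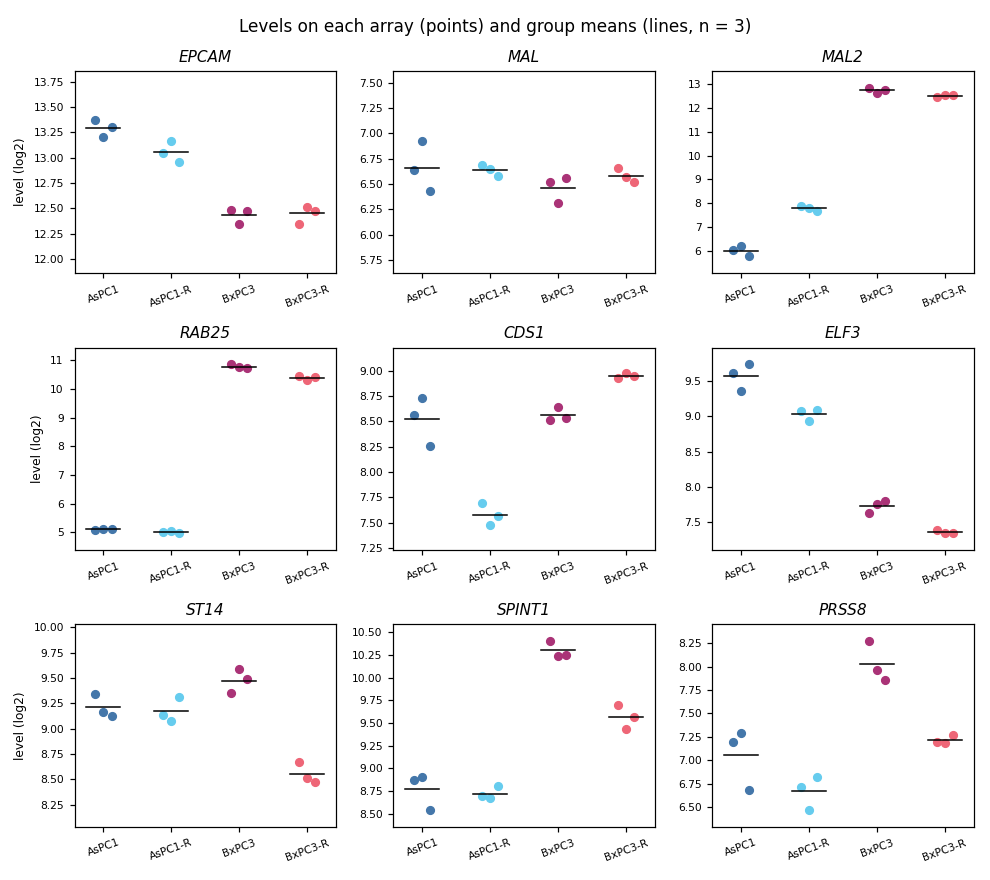
Log2 level of each of the 9 genes on each array (points, replicates 1 to 3 from left to right within a group) and the group mean (line, n = 3), on an axis of its own for each gene. MAL2 and RAB25 separate the AsPC1 groups from the BxPC3 groups by more than 4 log2 units, whereas MAL spans less than 1 log2 unit over all arrays.

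Of the 9 genes, MAL2, a carrier of apical traffic, gave the largest change in a derivative. Its level was 6.04, 6.21 and 5.80 in AsPC1, 7.89, 7.82 and 7.70 in AsPC1-R, 12.83, 12.59 and 12.75 in BxPC3, and 12.45, 12.52 and 12.53 in BxPC3-R. No groups overlapped, and every AsPC1-R array lay above every AsPC1 array and below every BxPC3-R array. MAL2 rose in AsPC1-R by 1.79 (0.11; adjusted p = 3.68e-08). In BxPC3-R the difference was -0.22 (0.11; adjusted p = 0.177, 95% interval -0.45 to 0.01), which was called lower when quantile normalization was applied once more (adjusted p = 0.0403) or arrays were weighted (adjusted p = 0.019). The change in AsPC1-R exceeded that in BxPC3-R by 2.01 (0.15; adjusted p = 3.09e-07). AsPC1 lay 6.71 below BxPC3 (difference -6.71, SE 0.11; adjusted p = 9.7e-15), the 12th largest absolute difference of all 18417 genes, and AsPC1-R still lay below BxPC3-R (difference -4.70, SE 0.11; adjusted p = 3.71e-13). With MAL2 at a mean of 6.02 in AsPC1 and no measured background, the sizes of the 104.5-fold difference and of the 3.46-fold rise are uncertain.

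MAL, the founding member of that family, was not called in either derivative or between the lines. It read 6.64, 6.93 and 6.43 in AsPC1, 6.69, 6.65 and 6.58 in AsPC1-R, 6.52, 6.31 and 6.56 in BxPC3, and 6.66, 6.57 and 6.52 in BxPC3-R. The parental ranges overlapped with those of the derivatives. The difference was -0.02 in AsPC1-R (95% interval -0.27 to 0.23), 0.12 in BxPC3-R (-0.13 to 0.37) and 0.20 between the parental lines (-0.05 to 0.45; adjusted p = 0.161). Without replicate 3 of AsPC1, the difference between the parental lines was called higher in AsPC1 (0.32, adjusted p = 0.0257).

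RAB25 was read at 5.09, 5.11 and 5.13 in AsPC1, 5.03, 5.06 and 4.98 in AsPC1-R, 10.85, 10.76 and 10.71 in BxPC3, and 10.45, 10.32 and 10.42 in BxPC3-R. The AsPC1 groups were low on all 6 arrays and the BxPC3 groups high on all 6. AsPC1 lay below BxPC3 by 5.66 (difference -5.66, SE 0.07; adjusted p = 3.29e-15), and the derivatives differed by nearly as much (-5.37, SE 0.07; adjusted p = 3.42e-15). RAB25 fell in BxPC3-R by 0.38 (difference -0.38, SE 0.07; adjusted p = 0.00207), or 1.30-fold. In AsPC1-R the difference was -0.09 (0.07; adjusted p = 0.457) from a mean of 5.11. The 2 changes were not called different (0.29, SE 0.10; adjusted p = 0.0571), but were with dim genes left out (adjusted p = 0.029), with quantile normalization once more (0.0277) and with array weights (0.0318).

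CDS1 moved in opposite directions in the derivatives. It read 8.56, 8.73 and 8.26 in AsPC1, 7.69, 7.48 and 7.57 in AsPC1-R, 8.51, 8.64 and 8.53 in BxPC3, and 8.93, 8.98 and 8.95 in BxPC3-R. All AsPC1-R arrays were below all AsPC1 arrays, and all BxPC3-R arrays were above all others. CDS1 fell in AsPC1-R by 0.94 (difference -0.94, SE 0.11; adjusted p = 2.75e-05), or 1.91-fold, and rose in BxPC3-R by 0.39 (0.11; adjusted p = 0.0183), or 1.31-fold. The call of the rise was lost without BxPC3 replicate 1 (adjusted p = 0.0618), BxPC3 replicate 3 (0.0607) or BxPC3-R replicate 2 (0.0626). The difference of the changes was -1.33 (0.15; adjusted p = 2.09e-05). The parental lines overlapped (-0.04, 95% interval -0.28 to 0.19), and the derivatives differed by -1.37 (0.11; adjusted p = 1.13e-07).

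EPCAM read 13.37, 13.21 and 13.30 in AsPC1, 13.05, 13.17 and 12.96 in AsPC1-R, 12.48, 12.35 and 12.47 in BxPC3, and 12.35, 12.51 and 12.47 in BxPC3-R. The AsPC1-R arrays all lay below the AsPC1 arrays, and the BxPC3 groups overlapped. EPCAM was higher in AsPC1 than in BxPC3 by 0.86 (0.09; adjusted p = 1.31e-06), and in AsPC1-R than in BxPC3-R by 0.62 (0.09; adjusted p = 3.65e-05). The difference between AsPC1-R and AsPC1 was -0.23 (0.09; adjusted p = 0.0751), not called. EPCAM has a second probe set, which read 13.33, 13.07 and 13.21 in AsPC1 and 12.75, 12.85 and 12.71 in AsPC1-R. On that one the fall was called (-0.43, adjusted p = 0.00195), as it was with the mean of both (-0.33, adjusted p = 0.00985), with a trended robust prior (-0.23, adjusted p = 0.0102), with array weights (-0.28, adjusted p = 0.0269) and with dim genes left out (adjusted p = 0.0429). In BxPC3-R the difference was 0.01 (95% interval -0.17 to 0.20).

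ELF3 was the only one of the 9 genes called lower in both derivatives. It read 9.62, 9.36 and 9.74 in AsPC1, 9.08, 8.93 and 9.09 in AsPC1-R, 7.62, 7.76 and 7.79 in BxPC3, and 7.38, 7.34 and 7.34 in BxPC3-R. No groups overlapped. It fell in AsPC1-R by 0.54 (difference -0.54, SE 0.10; adjusted p = 0.00146), or 1.45-fold, and in BxPC3-R by 0.37 (difference -0.37, SE 0.10; adjusted p = 0.0163), or 1.29-fold. The call in BxPC3-R was lost without BxPC3 replicate 2 (adjusted p = 0.0536), BxPC3 replicate 3 (0.0674) or BxPC3-R replicate 2 (0.0547). The changes were not called different from each other (-0.17, 95% interval -0.48 to 0.13). ELF3 was higher in AsPC1 than in BxPC3 by 1.85 (0.10; adjusted p = 1.51e-09), and higher in AsPC1-R than in BxPC3-R by 1.68 (0.10; adjusted p = 5.31e-09).

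The 3 genes of the matriptase cascade, ST14, SPINT1 and PRSS8, all fell in BxPC3-R. ST14 read 9.34, 9.16 and 9.12 in AsPC1, 9.13, 9.08 and 9.31 in AsPC1-R, 9.35, 9.59 and 9.49 in BxPC3, and 8.67, 8.51 and 8.47 in BxPC3-R. The BxPC3-R arrays were below all the others. ST14 fell in BxPC3-R by 0.93 (difference -0.93, SE 0.10; adjusted p = 1.47e-05), or 1.90-fold. In AsPC1-R the difference was -0.04 (95% interval -0.25 to 0.18), and the 2 changes differed by 0.89 (0.14; adjusted p = 0.000322). ST14 was lower in AsPC1 than in BxPC3 (-0.27, SE 0.10; adjusted p = 0.0376), a call lost without AsPC1 replicate 2 (adjusted p = 0.0943) or 3 (0.0999) and without BxPC3 replicate 2 (0.142) or 3 (0.0883). It was also lost with quantile normalization once more (-0.17, adjusted p = 0.167), with only the groups compared in the fit (0.0759) and with array weights (0.0586). Between the derivatives the order was the other way: AsPC1-R was above BxPC3-R by 0.62 (0.10; adjusted p = 0.000126).

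SPINT1, the matriptase inhibitor, read 8.87, 8.90 and 8.54 in AsPC1, 8.69, 8.67 and 8.80 in AsPC1-R, 10.40, 10.24 and 10.25 in BxPC3, and 9.70, 9.43 and 9.56 in BxPC3-R. It was high in BxPC3, intermediate in BxPC3-R and low in the AsPC1 groups, which overlapped. SPINT1 fell in BxPC3-R by 0.74 (difference -0.74, SE 0.11; adjusted p = 0.000207), or 1.67-fold. In AsPC1-R the difference was -0.05 (95% interval -0.28 to 0.18), and the changes differed by 0.69 (0.15; adjusted p = 0.00402). AsPC1 lay below BxPC3 by 1.53 (difference -1.53, SE 0.11; adjusted p = 2.95e-08), and AsPC1-R below BxPC3-R by 0.84 (difference -0.84, SE 0.11; adjusted p = 1.63e-05).

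PRSS8, which cleaves and activates the epithelial sodium channel, read 7.19, 7.29 and 6.68 in AsPC1, 6.71, 6.47 and 6.82 in AsPC1-R, 8.27, 7.96 and 7.86 in BxPC3, and 7.20, 7.18 and 7.27 in BxPC3-R. BxPC3 was above the other groups, and replicate 3 of AsPC1 lay among the AsPC1-R arrays. PRSS8 fell in BxPC3-R by 0.81 (difference -0.81, SE 0.15; adjusted p = 0.00145), or 1.75-fold. In AsPC1-R the difference was -0.39 (0.15; adjusted p = 0.0898), and without replicate 3 of AsPC1 it was -0.58 and called (adjusted p = 0.00631), as it was with array weights on all arrays (-0.42, adjusted p = 0.0309). The changes were not called different (0.42, 95% interval -0.04 to 0.88). AsPC1 was below BxPC3 by 0.97 (difference -0.97, SE 0.15; adjusted p = 0.000101), and AsPC1-R below BxPC3-R by 0.55 (difference -0.55, SE 0.15; adjusted p = 0.00813).

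**Figure D2:**
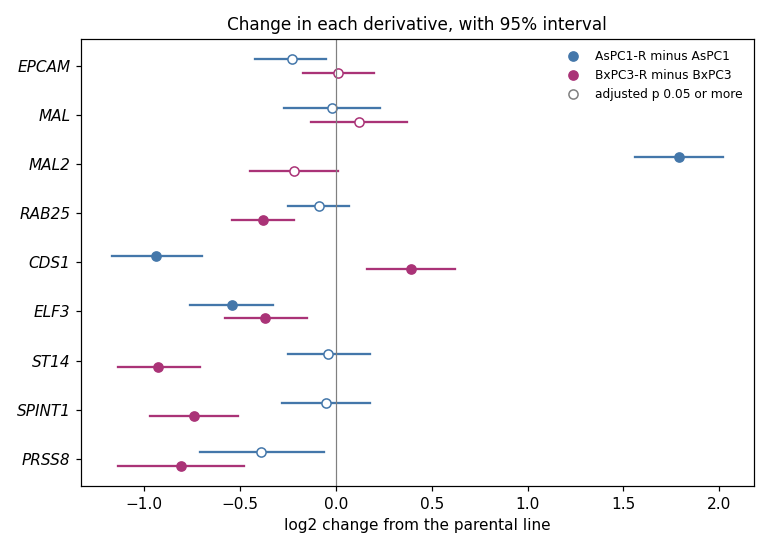
Log2 change from the parental line to its derivative for each of the 9 genes (AsPC1-R minus AsPC1 and BxPC3-R minus BxPC3, 3 arrays a group), with the 95% interval of the fit as a bar and filled points where the adjusted p is under 0.05. MAL2 rises in AsPC1-R, CDS1 lies on opposite sides of 0 in the derivatives, and ST14, SPINT1 and PRSS8 are filled in BxPC3-R only.

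Counted together, 1 of the 9 genes was called higher and 2 lower in AsPC1-R, where 20.3% of all genes tested were called (11.6% higher and 8.64% lower). In BxPC3-R 1 was called higher and 5 lower, where 20.8% of all genes tested were called (9.75% higher and 11% lower). The median change of the 9 genes was -0.09 in AsPC1-R and -0.37 in BxPC3-R, beside -0.05 and 0.019 over all genes. The arrays of the derivative and its parent did not overlap for 5 of the 9 genes in AsPC1-R (33.4% of all genes) and for 7 in BxPC3-R (38.2%). Without replicate 2 of BxPC3, the array that stood apart, 5 genes were called in BxPC3-R, ELF3 being the one lost.

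Markers of cell types were called as well. Their counts stand beside 20.8% of all genes called in BxPC3-R (9.75% higher, 11% lower). In AsPC1-R the share was 20.3% (11.6% higher, 8.64% lower). In BxPC3-R, limma called 3 of 7 ductal markers higher and 1 lower (KRT8 went from a mean of 9.80 to 10.92), 3 of 9 fibroblast markers higher and 0 lower (PDGFRA 7.22 to 8.43), 0 of 8 endothelial markers higher and 3 lower (CDH5 9.34 to 6.67), and 0 of 8 leukocyte markers higher and 2 lower. Of the 6 acinar and endocrine markers 0 were called there (1 each way at an unadjusted p under 0.05). The array means of the ductal list lay at 9.42 to 9.60 in BxPC3 and at 9.70 to 9.78 in BxPC3-R. Those of the fibroblast list lay at 5.66 to 5.87 and at 6.08 to 6.22, and those of the endothelial list at 6.33 to 6.38 and at 5.62 to 5.71. In AsPC1-R, 2 ductal, 1 acinar or endocrine and 1 fibroblast marker were called lower, and 2 leukocyte and 1 endothelial marker higher. The part of these in the changes of the 9 genes was not tested.

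The difference of the 2 changes was called for 4 genes, 3 of them with the more positive change in AsPC1-R (MAL2, ST14, SPINT1) and 1 with the more negative (CDS1). That test called 25.4% of all genes (14.1% more positive in AsPC1-R and 11.3% more negative), and 55.4% of its calls were more positive in AsPC1-R, or 44.4% with arrays centred on their medians. The 9 genes kept all 4 calls, in the same directions, under that centring.

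Between AsPC1 and BxPC3, 2 of the 9 genes were called higher in AsPC1 (EPCAM, ELF3) and 5 lower (MAL2, RAB25, ST14, SPINT1, PRSS8), where 50.6% of all genes were called (27.7% higher and 22.9% lower). Between AsPC1-R and BxPC3-R, 3 were called higher (EPCAM, ELF3, ST14) and 5 lower (MAL2, RAB25, CDS1, SPINT1, PRSS8), where 43.3% were called (21.3% higher and 22% lower). The arrays did not overlap for 7 of the 9 genes between the parental lines (54.3% of all genes) and for 8 between the derivatives (55.4%). These comparisons use the same arrays as the changes above. The medians were -0.27 and -0.55 for the 9 genes and 0.109 and 0.031 for all genes. Without replicate 2 of BxPC3, 6 genes were called between the parental lines, ST14 being lost.

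**Figure D3:**
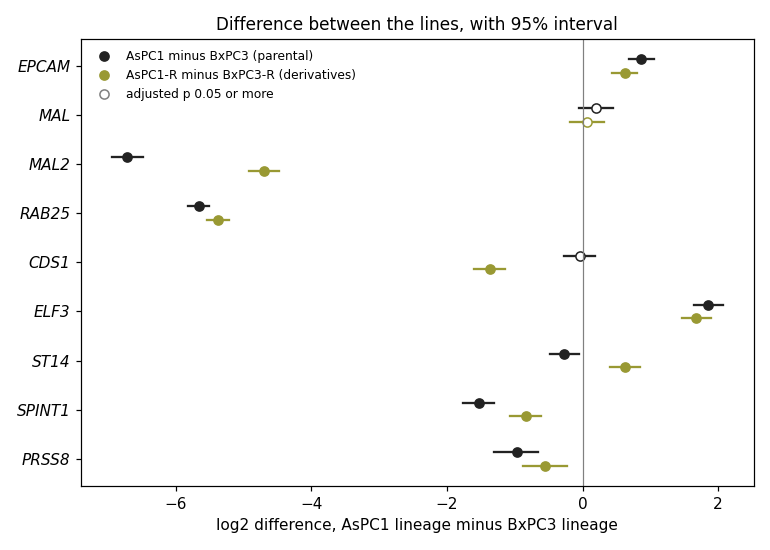
Log2 difference between the AsPC1 and BxPC3 lineages for each of the 9 genes, for the parental lines and for the derivatives (3 arrays a group), with the 95% interval as a bar and filled points where the adjusted p is under 0.05. MAL2 and RAB25 lie beyond -4 in both comparisons, and ST14 lies on opposite sides of 0.

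Ordering the 4 group means of each gene gave 27 pairs of neighbours in the order, of which 15 were called different. Across the 6 pairs of groups, 20.3% to 50.6% of all genes were called, with 41% for AsPC1-R against BxPC3 and 47.9% for AsPC1 against BxPC3-R. ELF3 had all its steps called, in the order AsPC1, AsPC1-R, BxPC3, BxPC3-R. MAL had none. EPCAM fell into a higher AsPC1 set and a lower BxPC3 set, with no call within either. MAL2 ran BxPC3, BxPC3-R, AsPC1-R, AsPC1, with the first step not called. RAB25 and SPINT1 ran BxPC3, BxPC3-R, AsPC1, AsPC1-R, and only the last step of each was not called. PRSS8 had the same order, but only BxPC3 differed from its neighbour. CDS1 ran BxPC3-R, BxPC3, AsPC1, AsPC1-R, with the parental lines not called different. ST14 ran BxPC3, AsPC1, AsPC1-R, BxPC3-R, with the AsPC1 groups not called different.

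RAB25, ELF3, CDS1 and SPINT1 are shown here by the 250 bases before a transcription start, because they fell or rose in a derivative and their windows share an E-box, CACCTG, the sequence that the ZEB and SNAI repressors of epithelial genes bind. The set was chosen after the search. The sequences are from RefSeq (GRCh38.p14), which gave a promoter entry for 5 of the 9 genes (these and MAL). They are chr1:156060910-156061159, chr1:202010337-202010586, chr4:84582877-84583126 and chr15:40844227-40844476, each gene on the plus strand, 5′ to 3′, ending at the base before the start, with the E-box in capitals. In SPINT1, the window of the second of its 2 listed starts is shown and the E-box is on the other strand, so it appears as CAGGTG.
RAB25: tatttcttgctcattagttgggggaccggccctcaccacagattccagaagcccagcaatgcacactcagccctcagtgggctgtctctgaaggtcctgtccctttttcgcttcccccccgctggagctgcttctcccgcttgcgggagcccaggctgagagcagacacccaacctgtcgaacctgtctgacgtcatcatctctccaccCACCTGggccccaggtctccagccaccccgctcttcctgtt
ELF3: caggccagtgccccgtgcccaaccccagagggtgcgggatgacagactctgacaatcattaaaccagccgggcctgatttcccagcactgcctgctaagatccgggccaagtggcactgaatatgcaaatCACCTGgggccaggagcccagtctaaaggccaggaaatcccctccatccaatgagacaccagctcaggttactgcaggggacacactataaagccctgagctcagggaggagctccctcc
CDS1: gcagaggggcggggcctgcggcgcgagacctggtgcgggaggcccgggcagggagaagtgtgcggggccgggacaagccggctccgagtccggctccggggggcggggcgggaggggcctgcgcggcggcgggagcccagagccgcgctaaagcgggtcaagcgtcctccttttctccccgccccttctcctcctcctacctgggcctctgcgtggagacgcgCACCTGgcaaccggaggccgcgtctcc
SPINT1: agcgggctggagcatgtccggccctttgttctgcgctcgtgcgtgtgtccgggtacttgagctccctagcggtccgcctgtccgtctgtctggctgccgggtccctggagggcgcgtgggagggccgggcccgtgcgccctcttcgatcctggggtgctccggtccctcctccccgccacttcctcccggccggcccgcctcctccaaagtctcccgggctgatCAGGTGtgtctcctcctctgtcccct
The first base of the E-box was 41 bases before the start in RAB25, 120 in ELF3, 27 in CDS1 and 26 in SPINT1. CACCTG, searched on both strands, was found in 17.5% of 35116 promoter windows of that length and in 4 of the 6 windows of the 5 genes with an entry. The windows without it were that of MAL and the one at the other start of SPINT1. GGAAGT, an ETS-type sequence, was in 19.5% of windows and in 1 of the 5 (SPINT1). AACCNGTT, the grainyhead-type sequence, was in 1.49% of windows and in 0 of the 5. A match describes the letters and shows no binding. The levels of some factors that bind such sequences, ZEB1 and GRHL2 being picked after their values were seen, are given beside them. ZEB1, a repressor of epithelial genes, averaged 9.77 in AsPC1 and 5.88 in BxPC3 (difference 3.89, SE 0.16; adjusted p = 8.7e-11). SNAI2, another repressor of that kind, went the other way, from 11.52 in AsPC1 to 12.17 in BxPC3 (difference -0.65, SE 0.09; adjusted p = 2.41e-05), and ZEB2 (0.05) and SNAI1 (0.25) were not called between the parental lines. GRHL2, a grainyhead activator of epithelial genes, averaged 5.12 in AsPC1 and 10.79 in BxPC3 (difference -5.67, SE 0.12; adjusted p = 1.65e-13). Of its relatives, GRHL1 was also lower in AsPC1 (-1.31, adjusted p = 8.62e-09 in limma) and GRHL3 was not called (0.15). With no measured background, the sizes of the ZEB1 and GRHL2 differences are uncertain. ZEB1 and GRHL2 were not called in a derivative (ZEB1 0.40, adjusted p = 0.0987 in AsPC1-R and -0.04, 0.899 in BxPC3-R, and GRHL2 -0.32, 0.0933 and 0.17, 0.416). Their part in the levels of the 9 genes was not tested.

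Other genes of the same pathways were taken from lists, whose counts stand beside 20.3% of all genes called in AsPC1-R (11.6% higher, 8.64% lower) and 20.8% in BxPC3-R (9.75% higher, 11% lower). Tested against a 1.5-fold change with treat, 0 to 2 genes of each list were called in each derivative. Of all 18417 genes, treat called 398 in AsPC1-R and 396 in BxPC3-R. The counts below under other settings also stand beside calls over all genes. Leaving out 1 array gave 2869 to 4246 in AsPC1-R and 2970 to 4181 in BxPC3-R, beside 3730 and 3826 with all arrays. In the matriptase network (proteases, inhibitors and substrates; 13 of 16 genes measured, members left out), 2 were called higher and 1 lower in AsPC1-R, and 1 higher and 4 lower in BxPC3-R. The medians were -0.03 and 0.00. TMPRSS4, a membrane protease, fell in both derivatives, by 0.44 in AsPC1-R (difference -0.44, adjusted p = 0.00993) and by 1.48 in BxPC3-R (difference -1.48, adjusted p = 4.12e-07). It was 41.32-fold lower in AsPC1 than in BxPC3 (-5.37, adjusted p = 8.01e-14). TMPRSS3, another membrane protease, rose in AsPC1-R (1.06, adjusted p = 5.86e-05) and fell in BxPC3-R (-0.68, adjusted p = 0.00195). SCNN1A, the alpha subunit of the epithelial sodium channel on which PRSS8 acts, did the same, at 0.64 (adjusted p = 0.00024) and -0.65 (adjusted p = 0.000193). TMPRSS11E rose in BxPC3-R (1.49, adjusted p = 5.1e-06) and differed by 0.09 in AsPC1-R. Several of these readings were low. TMPRSS4 averaged 5.43 in AsPC1 and 4.99 in AsPC1-R. TMPRSS3 went from 5.59 to 6.64 in AsPC1-R and from 6.01 to 5.33 in BxPC3-R, and TMPRSS11E from 4.21 to 5.71 in BxPC3-R. With no measured background, the sizes of these changes and of the 41.32-fold difference are uncertain.

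In the list of apical recycling and raft transport (30 genes), 6 were called higher and 5 lower in AsPC1-R, and 3 higher and 8 lower in BxPC3-R, with medians of 0.01 and -0.12. The BxPC3-R count dropped from 11 to 7 without BxPC3 replicate 3 or BxPC3-R replicate 2, and was 17 with array weights. Calls over all genes moved the same way, from 3826 to 3146 and 2970 without these arrays and to 6356 with array weights. MYO5A, an actin motor of vesicle transport, rose 6.53-fold in AsPC1-R (2.71, adjusted p = 1.06e-08), from a mean of 5.38 to 8.09, and rose by 0.65 in BxPC3-R (adjusted p = 0.00474). MYO5C, the motor of that family found in secretory epithelia, fell in BxPC3-R (-1.14, adjusted p = 7.64e-06), differed by 0.02 in AsPC1-R, and was 21.59-fold lower in AsPC1 than in BxPC3 (adjusted p = 7.06e-13). MALL, a raft protein of the MAL family, rose in BxPC3-R (1.12, adjusted p = 9.23e-07) and differed by 0.06 in AsPC1-R. ANXA13, an annexin of apical carriers, fell in AsPC1-R (-1.09, adjusted p = 0.0101) and was higher in AsPC1 than in BxPC3 by 6.52 (adjusted p = 7.69e-11). In BxPC3 it read 4.43, 5.79 and 4.49, highest on replicate 2. MYO5C averaged 4.67 in AsPC1. With no measured background, the sizes of the MYO5A rise in AsPC1-R and of the MYO5C and ANXA13 differences between the lines are uncertain.

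Among the polarity complexes (20 of 21 genes measured), 0 were called higher and 2 lower in AsPC1-R by limma (0 and 4 at an unadjusted p under 0.05), and 2 higher and 2 lower in BxPC3-R. The medians were -0.02 and -0.06. The AsPC1-R count was 1 when AsPC1 replicate 1, AsPC1-R replicate 1 or AsPC1-R replicate 3 was left out, and the BxPC3-R count was 2 without BxPC3-R replicate 1. PATJ, a Crumbs complex scaffold, fell in AsPC1-R (-0.54, adjusted p = 8.96e-05) and rose in BxPC3-R (0.27, adjusted p = 0.0138), the directions that CDS1 took. CDC42, the polarity GTPase, fell in AsPC1-R (-0.29, adjusted p = 0.0339) and differed by 0.26 in BxPC3-R (adjusted p = 0.0536). PARD6B and PARD3, scaffolds of the Par complex, fell in BxPC3-R (-0.38, adjusted p = 0.00602, and -0.32, adjusted p = 0.0106) and differed by -0.02 and 0.09 in AsPC1-R.

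For CDP-diacylglycerol and phosphoinositide synthesis (18 genes), the pathway that CDS1 feeds, 4 were called higher and 3 lower in AsPC1-R and 1 each way in BxPC3-R, with medians of 0.08 and -0.03. With array weights 2 were called higher and 3 lower in BxPC3-R, where calls over all genes rose from 3826 to 6356. The largest changes were in AsPC1-R: DGKE, a diacylglycerol kinase that makes the substrate of CDS1, rose by 0.70 (adjusted p = 8.56e-05), and PI4K2A, a phosphatidylinositol kinase, rose by 0.51 (adjusted p = 0.00145). Its paralog PI4K2B (-0.69, adjusted p = 0.000244) and the kinase PIP5K1B (-0.69, adjusted p = 0.00104) fell. In BxPC3-R these 4 genes differed by 0.02, -0.16, 0.14 and -0.14, none called. DGKA, another diacylglycerol kinase, went against DGKE in AsPC1-R (-0.39, adjusted p = 0.00297) and rose in BxPC3-R (0.37, adjusted p = 0.00384). CDS2, the paralog of CDS1, went against CDS1 in both, at 0.31 (adjusted p = 0.0225) and -0.37 (adjusted p = 0.00733).

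For EPCAM's partners and the enzymes that cleave it (13 of 15 genes measured), 2 were called higher and 1 lower in AsPC1-R, and 1 higher and 6 lower in BxPC3-R, with medians of 0.00 and -0.19. CLDN7, the claudin that binds EPCAM, fell in AsPC1-R (-0.68, adjusted p = 6.22e-05) and in BxPC3-R (-0.75, adjusted p = 2.31e-05). ADAM17, a sheddase of EPCAM, rose in AsPC1-R (0.73, adjusted p = 1.61e-05) and fell in BxPC3-R (-0.78, adjusted p = 9.76e-06), with a difference of the changes of 1.52 (0.11; adjusted p = 3.09e-07). PSEN2, a catalytic subunit of gamma-secretase, fell in BxPC3-R (-0.58, adjusted p = 0.000426), and LEF1, a partner of beta-catenin in transcription, rose there (0.82, adjusted p = 0.00157). In AsPC1-R they differed by 0.03 and -0.15.

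Among epithelial transcription and splicing factors (14 of 17 genes measured, ELF3 left out), 1 was called higher and 4 lower in AsPC1-R, and 0 higher and 7 lower in BxPC3-R by limma (0 and 8 at an unadjusted p under 0.05). The medians were -0.13 and -0.31. The AsPC1-R count was 3 when replicate 1 of either AsPC1 or AsPC1-R was left out. The ETS factors ELF5 (-1.07, adjusted p = 2.58e-06) and EHF (-0.68, adjusted p = 0.000156), relatives of ELF3, fell in BxPC3-R, as did GRHL1, a grainyhead factor (-0.94, adjusted p = 2.39e-06), and MYRF (-0.68, adjusted p = 0.000112). In AsPC1-R these 4 differed by 0.07, 0.17, 0.01 and -0.14, none called. Of the 7 repressors linked to epithelial-mesenchymal transition, SNAI2 alone was called in each derivative, higher by 0.33 in AsPC1-R (adjusted p = 0.0161) and by 0.46 in BxPC3-R (adjusted p = 0.00148). In AsPC1-R, 0 of the 7 were called by limma (2 at an unadjusted p under 0.05 with all arrays) when replicate 3 of AsPC1 or of AsPC1-R was left out, and 2 were called when BxPC3 replicate 2 was. With array weights, 2 of the 7 were called higher in each derivative. Calls over all genes then rose from 3730 to 4315 in AsPC1-R and from 3826 to 6356 in BxPC3-R.

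The genes whose 4 group means lay closest to those of each member, each gene centred on its own mean, were sought among 12328 genes that reached the median of all values in some group. Likeness was the root mean square difference of the 4 centred means in log2 units. MAL2, whose means span 6.71, lay nearest to IFI44L (0.336) and COL12A1 (0.346), and RAB25, which spans 5.75, to AIM2 (0.125) and LRRN1 (0.145). CDS1 lay nearest to H1-3 (0.025) and ARID2 (0.026), and EPCAM to PTER (0.024) and SDCCAG8 (0.025). ELF3 lay nearest to TRAF5 (0.050) and TRIM36 (0.083), ST14 to CCDC28A (0.063) and NDRG2 (0.065), SPINT1 to LRMDA (0.069) and SSPN (0.071), and PRSS8 to GALNT12 (0.033) and FANK1 (0.047). MAL, which spans 0.20 in all, lay nearest to HAAO (0.007) and COPB1 (0.008). A gene with a small range is close to many others, so these distances rank genes within a member only.

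The large differences of RAB25 and MAL2 between the lines were set beside those of the 5 measured genes on each side of them, in the gene order of RefSeq (GRCh38.p14). Of all genes, 50.6% were called between AsPC1 and BxPC3, 20.3% in AsPC1-R and 20.8% in BxPC3-R. Around RAB25, on chromosome 1, differences between AsPC1 and BxPC3 ran from -1.20 (SEMA4A) to 1.04 (LAMTOR2), with 5 of 10 neighbours called higher in AsPC1 and 1 lower, against -5.66 for RAB25 itself. Around MAL2, on chromosome 8, they ran from -1.04 (CCN3) to 3.94 (DEPTOR), with 5 of 10 called higher in AsPC1 and 2 lower, against -6.71 for MAL2. So no neighbour of either gene had a difference of like size in the same direction. Around CDS1, on chromosome 4, 2 of 10 neighbours were called higher in AsPC1-R and 0 lower by limma, where CDS1 fell. In BxPC3-R, where CDS1 rose, 4 were called higher and 1 lower. The 4 lie on one side of CDS1: HELQ (0.43), MRPS18C (0.46), ABRAXAS1 (0.32) and GPAT3 (1.21). NKX6-1, the measured gene between them and CDS1, differed by -0.01 (adjusted p = 0.946 in limma). The 1 called lower was MAPK10 (-1.09), on the other side. HELQ (0.60) and GPAT3 (1.38) were also the 2 called in AsPC1-R.

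**Figure D4:**
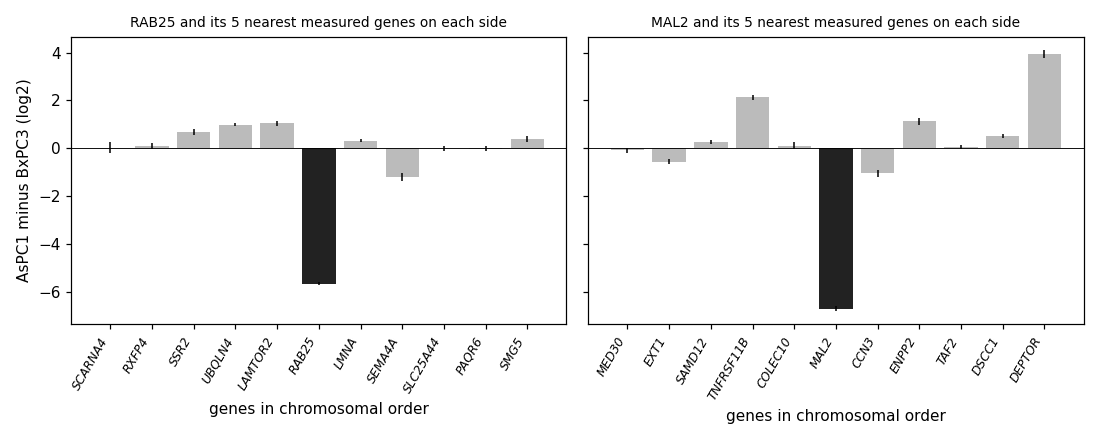
Log2 difference AsPC1 minus BxPC3 (bars, with standard error) for RAB25 and for MAL2 (dark) and the 5 nearest measured genes on each side (grey), in chromosomal order. RAB25 at -5.66 and MAL2 at -6.71 stand below all their neighbours, the lowest of which are -1.20 and -1.04.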

How the data were processed

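Each array was 1 sample of total RNA, amplified, biotin-labelled and hybridised to an Affymetrix array. The deposited log2 values come from RMA in Affymetrix Expression Console, per the submitters' processing notes. For version, annotation and build: not given in the sources used here. Of 33297 probe sets, 19460 had 1 gene symbol, 1754 several and 12083 none, and for the 769 genes with several probe sets the one with the highest mean was used. All 12 arrays were fitted with 1 mean per group in limma 3.58.1 (R 4.3.3; lmFit and eBayes, 8 residual and 5.47 prior degrees of freedom). The method was tested on simulated data. A log2 change of 0.585 was recovered for 61.5% of changed genes in AsPC1-R, 64.5% in BxPC3-R and 18.5% for the difference of the changes. For a change of 1 the shares were 94%, 93.5% and 84%. A small difference of the changes can therefore go uncalled. Called means an adjusted p under 0.05. Precision is limited by having 3 arrays a group. The members and lists were chosen with earlier results of these data known. From each list, up to 4 genes with the largest called changes are named, and for each member the 2 nearest genes. DGKA and CDS2 are named beyond that rule. Old symbols were updated through RefSeq, where 18389 of 18417 genes matched. The alternatives tried were other normalizations, filters, fits and thresholds, and leaving out each array in turn.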

Additional observations from a re-analysis of the deposited data

Results flagged for a closer look

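The changes in the derivatives differed from each other for 4 of the 9 genes, by the test in limma of the AsPC1-R change minus the BxPC3-R change, which called 25.4% of all genes. The difference was 2.01 for MAL2, which rose in 3 of 3 AsPC1-R arrays above all AsPC1 arrays, and -1.33 for CDS1, which fell in AsPC1-R and rose in BxPC3-R. It was 0.89 for ST14 and 0.69 for SPINT1, which fell in BxPC3-R on 3 of 3 arrays below all BxPC3 arrays and overlapped with the parent in AsPC1-R.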

How the results depend on the processing

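Over the 9 genes, 1327 values under an alternative stayed on the same side of the threshold, 14 became called and 43 lost the call. Of these, 0 changed direction while called. Differences called in neither fit could change sign, as for EPCAM in BxPC3-R (0.01, and -0.11 on its second probe set). The numbers of members called moved by over 1.5 times only as follows. In AsPC1-R against AsPC1, 3 became 5 with array weights and 1 when tested against a 1.5-fold change with treat. That test left 0 of 6 in BxPC3-R against BxPC3 (1 at an unadjusted p under 0.05). It left 2 of 4 for the difference of the changes and 4 of 8 between the derivatives. Of 15 neighbouring pairs in the order of the levels, 4 were left. Treat was also strict over all 18417 genes. It called 2278 of them between the derivatives and 933 when the changes were compared. The change from parent to derivative was called for 396 genes in the BxPC3 pair and 398 in the AsPC1 pair. Leaving out each array in turn gave 3 to 4 members in AsPC1-R, 4 to 6 in BxPC3-R, 4 in each case for the difference of the changes, 6 to 7 between the parental lines, 8 in each case between the derivatives and 12 to 15 neighbouring pairs. With the replicate number as a block, the counts were 3, 6, 4, 6 and 8 in that order, and 14 neighbouring pairs. The call lost was ST14 between the parental lines (adjusted p = 0.0556). The numbers do not pair the arrays: the correlation of same-numbered arrays' deviations ran from -0.239 to 0.34, and not every array correlated best with its own number. Limits are the 1 derivative per line, the unmeasured background, which makes differences from low readings of RAB25 and MAL2 uncertain in size, and 3 arrays a group of unstated origin.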
